A study of Schizosaccharomyces pombe with 4 samples.

Results

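Trimethylation of histone H3 at lysine 9 (H3K9me3) was compared between 2 arrays of the 4 in the series, both from fission yeast (Schizosaccharomyces pombe) of the clr3-CDx2 genotype: tetR-clr4 OFF after 14 generations, and tetR-clr4 ON. The arrays were chosen by their titles and no measured value was used, and each held 41551 tiles, 60-mers spaced about 300 bp apart. OFF cells had spent 14 generations in medium holding thiamine (5 µg/ml) and tetracycline (2.5 µg/ml). ON cells of the same culture were fixed before that switch, after 20 generations at 32 °C in thiamine-free medium and 5 generations in 850 µg/ml 5-fluoroorotic acid, which is toxic to cells that express ura4. The 2 wt arrays, tetR-clr4 OFF and ON, were grown in the same way, and their values are given beside a part of the clr3-CDx2 values. All 4 groups carry tetR-clr4, which joins the Tet repressor with the methyltransferase Clr4, and all passed through 5-fluoroorotic acid. The meaning of clr3-CDx2 is not spelled out in the labels, and nothing beyond the name was assumed. The position of the tet operators, the promoter of the fusion and the number of cultures or clones are not given in the sources used here.

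Clr4 is the H3K9 methyltransferase of fission yeast, and its chromodomain also binds the mark, so that methylated nucleosomes can guide methylation of their neighbours. Clr3 is a histone deacetylase of the SHREC complex, which works in heterochromatin. Constitutive heterochromatin covers pericentromeric repeats, the silent mating-type cassettes and the subtelomeres, and a Clr4 fusion tethered to an operator array builds an ectopic domain that can be followed once the fusion is released. Thiamine represses the nmt family of promoters and tetracycline releases the Tet repressor from DNA.

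The value of each tile is the log2 ratio of ChIP over input signal less the median of its array, so that 0 is the middle tile and 1 is a 2-fold enrichment over it. With 1 array per group there is no replicate spread to compare a difference with, so no p-value was computed and values describe these arrays only. OFF cells were fixed later than ON cells and after 5-fluoroorotic acid was last named, so time, the end of that treatment, thiamine and tetracycline themselves and the release of tetR-clr4 cannot be told apart. All arrays share 1 slide and 1 scan. Median spot signal was 137 to 166 times background in the ChIP channel and 417 to 490 times in the input channel of the clr3-CDx2 arrays. Of the tiles, 720 were marked non-uniform on either clr3-CDx2 array and left out, and 40831 were used. The clr3 gene itself read -1.32 in clr3-CDx2 OFF and -1.39 in clr3-CDx2 ON, against 0.65 in wt OFF and 0.55 in wt ON, so the genotypes differed at the locus and the states of each differed little. What was altered there is not given, so this checks the label only in part.

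Most of the genome read alike in OFF and ON cells. Over all used tiles the difference OFF minus ON had a median of 0.06 and quartiles of -0.11 and 0.27, and the levels of the 2 arrays correlated at r = 0.925 across tiles, which share probe sequences and a slide. A tile counted as changed where OFF and ON lay 1 or more apart in log2 and either of them was at 1 or more. As higher in OFF counted 757 tiles, 1.85% of those tested, and as lower 103, or 0.252%. Of the higher tiles 165 were pericentromeric, 142 came from subtelomere I right and 93 from subtelomere I left. A further 126 lay among the 39493 used tiles of the chromosome arms. On subtelomeric clones lay 70, on the mating-type contig 48 and in the ectopic core around ura4 38. Subtelomeres II left and right held 37 and 33, and ade6 held 5. Of the lower tiles 93 lay in the chromosome arms, fewer than the higher tiles there, and 10 right of the ectopic core. The fixed heterochromatic regions held 0. Counts of higher and lower tiles depend on the scale: with the log2 values of each array multiplied by 1 factor, so that the pericentromeric median level was equal on all arrays (the pericentromeric scaling), they were 144 and 446.

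**Figure D1:**
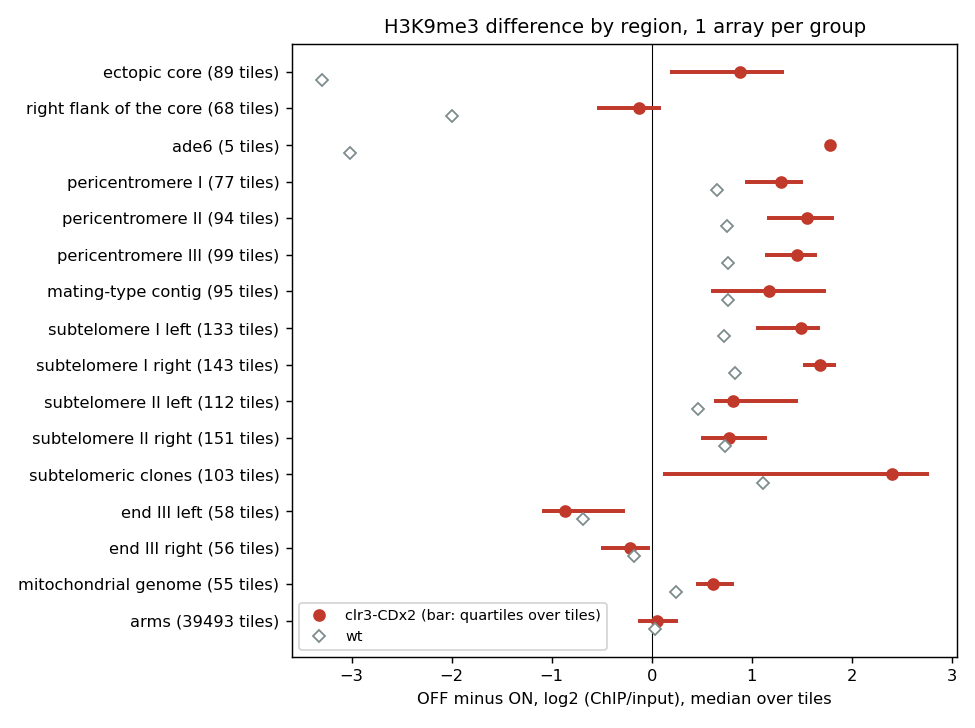
Difference in H3K9me3 between OFF and ON cells by region (x axis, log2 of ChIP over input, median over tiles). Filled points are clr3-CDx2 with a bar over the quartiles of its tiles, and open diamonds are wt; in clr3-CDx2 the subtelomeres, pericentromeres, mating-type contig, ectopic core and ade6 lie right of 0, and in wt the ectopic core (-3.29) and ade6 (-3.01) lie left of it.

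Constitutive heterochromatin read higher in OFF than in ON cells at each of its usual places. Subtelomere I right read 4.54 in OFF and 2.86 in ON, a median difference of 1.68 (3.21-fold). There 143 of 143 tiles were higher, where 58.8% of all used tiles were. Neighbouring tiles of 1 array pair are not replicates, so such counts are descriptions. Subtelomere I left read 3.71 in OFF and 2.03 in ON, and differed by 1.496. Of its 158 tiles, marked ones included, 146 are repeated. The subtelomeres of chromosome II read lower in both states, 0.91 in OFF and 0.23 in ON on the left and 0.42 in OFF and -0.22 in ON on the right, and differed by 0.82 and 0.77. Each of these 4 differences was positive also in wt, at 0.83 and 0.72 on chromosome I (right and left) and at 0.46 and 0.74 on chromosome II (left and right).

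Over the pericentromeres the mark read 2.23 in OFF and 0.39 in ON, a median difference of 1.42 (2.68-fold) against 0.73 in wt. There 269 of 270 tiles were higher, where 58.8% of all used tiles were. Both kinds of pericentromeric tile were higher. The 196 repeated tiles read 3.94 in OFF and 2.40 in ON and differed by 1.47. The 74 unique tiles read 1.06 in OFF and -0.48 in ON and differed by 1.29. When tiles were divided by their level in wt ON, an array not compared here, the 143 tiles at 1 or more read 5.38 in OFF and 3.85 in ON (difference 1.53), and the 94 tiles below 0 read -1.62 in OFF and -2.60 in ON (difference 1.06). Tiles low in the mark were thus higher as well as tiles that carry it. Marked spots were common there, 25% of pericentromeric tiles, and with them kept the difference was 1.40. The levels depend on them more: with marked spots kept the pericentromeres read 4.36 in OFF and 2.76 in ON. Of the 90 marked tiles 86 were at 1 or more in wt ON, so leaving them out lowers the median levels.

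The mating-type contig read 1.44 in OFF and 0.74 in ON, and differed by 1.18, against 0.76 in wt. With marked spots kept, 13.6% of its tiles, it read 3.54 in OFF and 2.08 in ON and differed by 1.24. Its 49 tiles at 1 or more in wt ON read 5.18 in OFF and 3.47 in ON, a difference of 1.72, and its 14 tiles below 0 in wt ON read 0.08 in OFF and -0.58 in ON, a difference of 0.78. The cassette gene mat3-Mc, the silent copy of the M mating-type gene, read 4.57 in OFF and 2.58 in ON (difference 1.99), and mat1-Mc, at the expressed cassette, read 4.74 in OFF and 2.62 in ON (2.12). Each rests on 2 repeated tiles, so the signal cannot be assigned to 1 cassette. The unbroken enriched run on the contig was 24.0 kb long in OFF and 19.2 kb in ON.

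Tiles of subtelomeric clones, cloned end sequences kept as separate contigs on the array, had the largest regional difference, at 3.89 in OFF and 1.19 in ON (2.41, or 5.31-fold, against 1.12 in wt). The clones were not alike. The clones pNSU21, pNSU64, pNSU65 and pNSU70 read from 4.06 to 4.30 in OFF and from 1.26 to 1.69 in ON, with differences from 2.54 to 2.77. This was not shared by 2 others: pNSU71 read 0.98 in OFF and 0.73 in ON, and pNSU77 read -0.80 in OFF and -0.26 in ON. Of the clone tiles 88 are repeated, and without them the difference over the clones was 0.017.

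The ends of chromosome III went the other way. The left end read -1.62 in OFF and -0.86 in ON, a median difference of -0.87, with -0.69 in wt. Of its 58 tiles 13 were higher, where 58.8% of all used tiles were. The right end read -1.13 in OFF and -0.90 in ON and differed by -0.22, which became 0.24 under the pericentromeric scaling. All 59 tiles of the left end and 41 of the 56 of the right end are repeated. The mitochondrial genome, which has no histones, read -2.50 in OFF and -3.14 in ON, a median difference of 0.62 against 0.24 in wt. There 55 of 55 tiles were higher, against the same share of 58.8%.

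Over the outer parts of chromosomes I and II the excess of OFF over ON was largest near the ends, and farther in it was smaller but not even. In subtelomere I right the outer 10 kb read 5.29 in OFF and 3.50 in ON (difference 1.80), the step from 40 to 50 kb read 3.93 in OFF and 2.16 in ON (1.68), the step from 50 to 60 kb 1.78 in OFF and 0.98 in ON (0.81), and the step from 110 to 120 kb 0.02 in OFF and -0.24 in ON (0.30). The difference was thus nearly even for 50 kb and smaller beyond. The enriched run there covered 61.8 kb in OFF and 52.5 kb in ON. At the left end of chromosome I the enriched run was 36.3 kb in both states, and a difference of 0.64 to 0.68 went on through steps from 50 to 90 kb that read between 0.16 and 0.62 in OFF and between -0.46 and -0.10 in ON. On chromosome II the difference was 1.57 in the outer 10 kb on the left and 1.53 on the right. From 30 to 40 kb it was 0.73 on the left and 0.66 on the right. Single steps farther in stood above their neighbours: on II left the step from 70 to 80 kb differed by 1.02, between 0.53 outward and -0.02 inward, and on I left the step from 100 to 110 kb by 0.73, inward of 0.33. The outer 20 kb of all 4 ends rest mostly on repeated tiles. On I left this holds out to 50 kb, and on II left out to 30 kb.

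**Figure D2:**
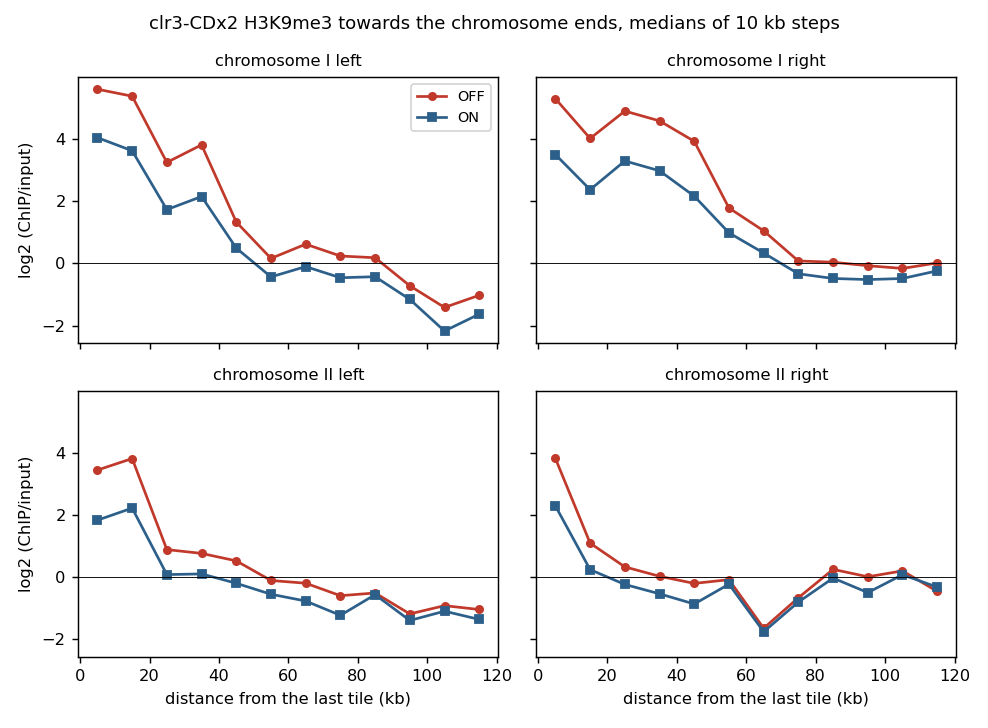
H3K9me3 in clr3-CDx2 OFF (circles) and ON (squares) against distance from the last tile of each arm of chromosomes I and II (x axis, kb; y axis, log2 of ChIP over input, median of 10 kb steps). OFF lies above ON in the outer 50 kb of each end, and in the I right panel the gap is between 1.56 and 1.80 over that stretch.

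At equal starting level, regions differed in how far OFF and ON were apart. Among tiles between 2 and 3 in ON, the 133 subtelomeric ones differed by 1.64 (quartiles 1.496 and 1.77), the 23 pericentromeric ones by 1.52 and the 30 of the ectopic core by 0.46 (quartiles 0.19 and 1.27). Repeated were 92 of these subtelomeric tiles, 16 of the pericentromeric ones and 0 of the core ones, so region and repeats are mixed in this comparison. The 195 other arm tiles of that level differed by 0.17 (quartiles -0.04 and 0.46), and 65 of them are repeated. Within the arms the difference varied with the ON level at both extremes: it was 0.62 for the 1483 tiles below -2, -0.02 for the 14198 tiles between 0 and 1, and 1.59 for the 22 tiles at 3 or more. Of those 22 tiles 13 are repeated, and the arms as defined here take in mae2 and the mating-type locus of chromosome II. The ON value serves both to sort the tiles and to form the difference, in each of these classes.

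Genes were read as the median over at least 2 tiles, and 4938 protein-coding genes were measured. The median gene read 0.08 in OFF and 0.09 in ON, and the median difference over genes was 0.01 with quartiles of -0.12 and 0.16. By the rule used for tiles, 45 genes counted as higher in OFF, 0.911% of those tested, and 10 as lower, 0.203%. Of the higher genes 23 were subtelomeric on chromosome I (15 right, 8 left) and 7 on chromosome II (4 left, 3 right). In the ectopic core lay 5, 1 was ade6 and 9 lay elsewhere in the arms as defined here. These 9 take in mat1-Mc and mat3-Mc at the mating-type locus of chromosome II. They also take in pfl9 and SPAC977.14c, named after their values were seen, which lie inward of the 50 kb limit of subtelomeres I right and left. The counts of higher and lower genes are 4 and 29 under the pericentromeric scaling, 21 and 10 without repeated tiles and 7 and 3 on the ChIP channel alone.

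**Figure D3:**
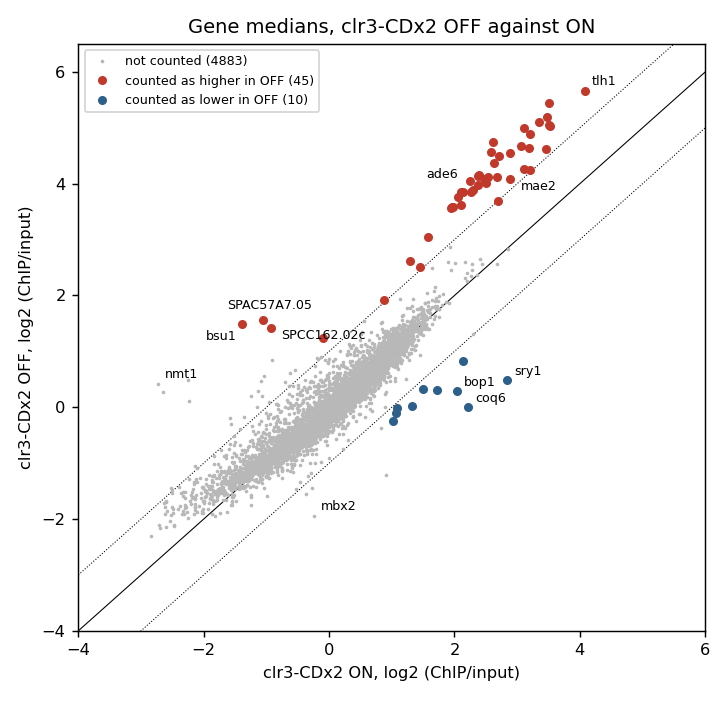
H3K9me3 per gene in clr3-CDx2 OFF (y axis) against clr3-CDx2 ON (x axis), both log2 of ChIP over input. The solid line marks equal levels, dotted lines a 2-fold difference, and coloured points the 45 genes counted as higher and the 10 counted as lower; subtelomeric genes other than SPBPB2B2.14c (0.87 in ON) form a group above ON levels of 1, while bsu1, SPAC57A7.05 and SPCC162.02c start below 0.

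The subtelomeric genes counted as higher, which had to reach 1 on an array to be counted, read from 1.91 to 5.66 in OFF and from 0.87 to 4.08 in ON. The regions hold other genes that did not reach that level, such as SPAC977.05c, named after its values were seen, at 0.89 in OFF and -0.20 in ON. In the right subtelomere of chromosome I, SPAC750.07c read 5.44 in OFF and 3.50 in ON (difference 1.94), on repeated tiles. SPAC186.07c read 5.00 in OFF and 3.11 in ON (1.89), against 1.39 in wt OFF and 0.65 in wt ON. The gene gdt1 read 4.49 in OFF and 2.71 in ON (1.78), and pdc102, a pyruvate decarboxylase gene, 5.11 in OFF and 3.35 in ON (1.76), all on unique tiles. In subtelomere I left, tlh1, a RecQ-type helicase gene of the chromosome ends, read 5.66 in OFF and 4.08 in ON over 12 repeated tiles (1.58), while under the pericentromeric scaling it differed by -0.69. The 8 genes counted there differed by 1.06 to 1.75, with SPAC977.04 and ftm2 at the top. On chromosome II, ftm5 read 4.14 in OFF and 2.38 in ON (1.76), ftm6 3.88 in OFF and 2.30 in ON (1.59), ftm7 4.02 in OFF and 2.50 in ON (1.52), and SPBCPT2R1.01c 3.86 in OFF and 2.26 in ON (1.60). Each of these chromosome II genes rests on repeated tiles alone.

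The domain around ura4 was still present 14 generations after the switch. It was defined on ON arrays as the longest domain outside the regions above found in both genotypes, at array positions 99300 to 126300 of chromosome III. That definition used the ON values, and its levels in ON are therefore a description. In clr3-CDx2 the unbroken run had the same first and last tile in OFF and in ON. The gain was uneven along it. Between 18 and 12 kb left of the middle of ura4 the 3 kb steps read 1.31 and 1.59 in OFF and 1.23 and 1.51 in ON. From 6 kb left to 9 kb right of that point 5 steps read from 3.22 to 4.70 in OFF and from 2.10 to 3.25 in ON, and differed by 1.05 to 1.47. Beyond that, between 9 and 18 kb right, OFF read 1.05, 0.86 and 1.76 and ON read 0.98, 0.77 and 1.68. Most of that stretch lies right of the last tile of the run, in the flank. So the inner 15 kb read higher in OFF, while the steps from 18 to 6 kb left and from 9 to 18 kb right differed by less than 0.40. Farther right in the flank, the step from 21 to 24 kb differed by -1.54 and that from 24 to 27 kb by -0.75. In wt the 5 inner steps read from -1.16 to 0.59 in OFF and from 2.77 to 4.32 in ON.

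**Figure D4:**
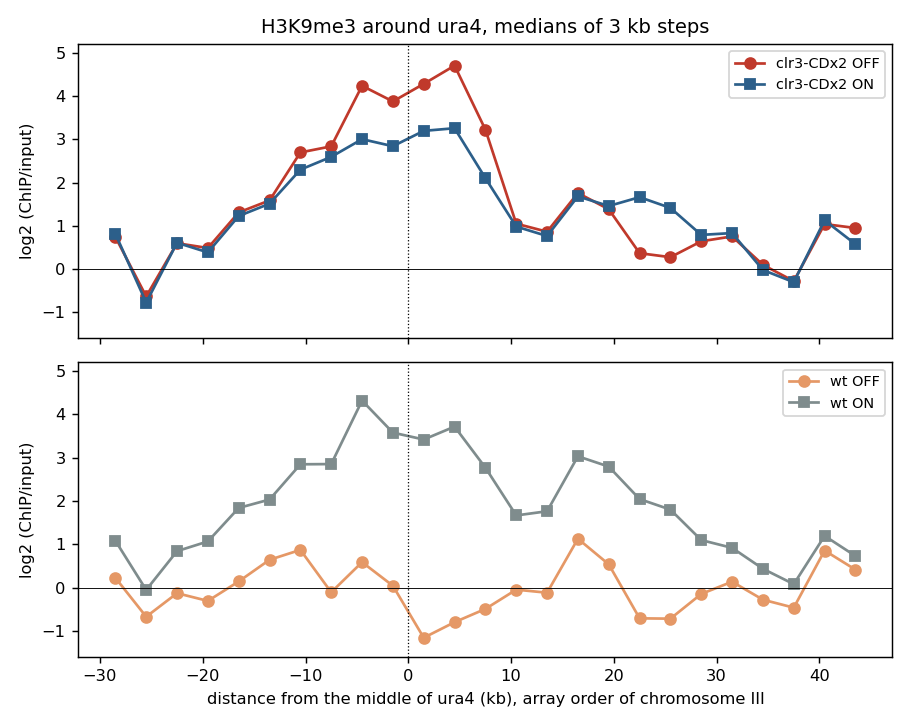
H3K9me3 around ura4 on chromosome III (x axis, distance from the middle of ura4 in kb; y axis, log2 of ChIP over input, medians of 3 kb steps). Circles are OFF and squares ON, clr3-CDx2 above and wt below; in clr3-CDx2 the inner steps peak at 4.70 in OFF and 3.25 in ON, and the step from 21 to 24 kb reads 0.37 in OFF and 1.66 in ON.

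Among genes of the domain, SPCC330.07c read 5.03 in OFF and 3.53 in ON (difference 1.496), and pmp20, a peroxiredoxin gene, 4.64 in OFF and 3.18 in ON (1.46). The 3 tiles of pmp20 read 4.65, 4.43 and 4.64 in OFF and 3.47, 3.18 and 3.17 in ON. The meiotically induced gene mug135 differed by 1.16, SPCC330.03c by 1.18 and ura4, the orotidine phosphate decarboxylase marker, by 1.04, at 4.24 in OFF and 3.20 in ON. Farther out, the nucleotide excision repair genes rhp16 and rhp7 differed by 0.43 and -0.03, rhp16 at 2.59 in OFF and 2.16 in ON and rhp7 at 2.83 in OFF and 2.86 in ON. The mannosyltransferase gene alg11 read 1.61 in OFF and 1.33 in ON. Over the 8 genes listed for the core, 7 differences were positive and 5 counted as higher, with a median of 1.10 that became -0.64 under the pericentromeric scaling. The core as a whole differed by 0.89, and by -0.61 under that scaling.

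Tiles of the marker gene ade6, an adenine synthesis gene, read high as well, apart from the ura4 domain by reference position on the right arm of chromosome III. Whether these strains hold a copy of ade6 elsewhere is not given, so the signal cannot be assigned to that locus. The 5 used tiles of ade6 read 3.68, 3.999, 4.31, 4.04 and 4.50 in OFF and 1.99, 2.24, 2.48, 2.17 and 2.71 in ON. Each tile was between 1.69 and 1.87 higher in OFF, and the gene differed by 1.80 against -3.04 in wt. The other 9 adenine synthesis genes differed by -0.23 to 0.22, and the other 6 measured genes of uracil synthesis and uptake by -0.27 to 0.31.

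Right of the domain the mark was lower over a stretch in which 1 gene passed the rule for genes. The serine racemase gene sry1 (chromosome III, 138959 to 140297 in ASM294v3) read 0.49 in OFF and 2.83 in ON, a difference of -2.35 (5.08-fold lower), and -4.09 in wt. Its 5 neighbouring tiles, which are not replicates, read between 0.19 and 0.83 in OFF and between 2.72 and 2.97 in ON. The ribosomal protein gene rpl2402 on its left read 0.01 in OFF and 0.90 in ON, and ark1, the Aurora kinase gene on its right, 0.84 in OFF and 1.28 in ON. The flank as a whole, 68 tiles with those of sry1 among them, changed less. Its median difference was -0.13 (quartiles -0.53 and 0.07), at 0.84 in OFF and 1.06 in ON, against -1.99 in wt. That median changed sign on the ChIP channel alone and under mode centring.

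The 9 other genes counted as lower were small islands in the arms. The ubiquinone synthesis gene coq6 (chromosome II, 1022290 to 1024021) read 0.00 in OFF and 2.21 in ON (difference -2.21). The other 8 measured ubiquinone genes differed by -0.28 to 0.06. The gene bop1 read 0.29 in OFF and 2.04 in ON (-1.75), and SPAP32A8.02, which overlaps it, 0.30 in OFF and 1.72 in ON (-1.42), so the 2 cannot be told apart. The nuclear export receptor gene msn5 read 0.83 in OFF and 2.14 in ON (-1.31). The chromatin remodeller subunit gene rsc58 read 0.02 in OFF and 1.32 in ON (-1.30), and pre1 -0.25 in OFF and 1.01 in ON (-1.26). The Set1 complex gene ash2 differed by -1.17, the multidrug transporter gene pmd1 by -1.16 and num1, which anchors dynein at the cortex in meiosis, by -1.10. In each of the 10 genes every used tile was lower in OFF, where 58.8% of all used tiles were higher. The genes were counted by the medians of these same tiles, so this is a description and no further support.

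The stretch of loss with the largest median difference was not the longest of them, and it lay over non-coding RNAs and a short open reading frame. It was found after the values were seen, by searching outside the fixed regions for runs of 5 or more tiles whose difference, as a running median over 3 tiles, was 1 or more, with 1 tile short of that allowed inside. Runs with a median of 1 or more in OFF or in ON were kept, 11 higher and 10 lower, which leaves out the longer run around bsu1. At array positions 2975100 to 2977200 of chromosome I, 7 used tiles read from -1.97 to -1.39 in OFF and from 0.32 to 2.30 in ON, with a median difference of -3.37 and a lowest of -4.07. The 3 tiles beyond each edge differed by between -0.98 and 0.19. In wt the same tiles read from -1.81 to -1.33 in OFF and from -0.39 to 1.27 in ON. By the reference annotation the stretch lies over the non-coding RNAs SPNCRNA.866, SPNCRNA.867 and SPNCRNA.31 and the short open reading frame SPAPB1A11.06, beside mfc1, a copper transporter gene whose own median was -0.30 in OFF and -0.21 in ON. The array build is not given in the headers and tiles were placed to within about 1 tile, which matters for features this short. Among the other lower runs, also named after their values were seen, one beside dna2, a replication helicase-nuclease gene, read 1.31 in OFF and 2.65 in ON.

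Higher genes outside the usual regions included several that began unmarked. The vitamin B6 transporter gene bsu1, which thiamine represses, read 1.49 in OFF and -1.39 in ON (difference 2.88, 7.39-fold), against 1.28 in wt OFF and -1.26 in wt ON. Its 6 tiles read between 0.74 and 1.70 in OFF and between -2.11 and -1.18 in ON. SPAC57A7.05 read 1.56 in OFF and -1.05 in ON over 21 tiles (2.61), each of them higher in OFF. The gene was counted by the median of these tiles, so their shared direction is a description. It read 0.86 in wt OFF and -0.88 in wt ON. SPCC162.02c read 1.42 in OFF and -0.93 in ON (2.35), and 1.29 in wt OFF and -0.53 in wt ON. The malic enzyme gene mae2, already marked, read 4.08 in OFF and 2.89 in ON (1.19), while the malate transporter gene mae1 read 0.09 in OFF and -0.24 in ON. At rsv2, a zinc finger transcription factor gene named after its values were seen, OFF read 1.23 and ON -0.10 (1.33), where wt differed by -0.13.

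Thiamine-regulated genes moved together, mostly below the level that counts as enriched. Of 9 measured, 8 were higher in OFF, 7 of them by at least 2-fold, where 1.46% of all measured genes were higher by that much at any level; bsu1 alone also passed the level of 1. The median difference was 1.27, against 0.01 over all genes and 1.20 for the same genes in wt. All gene lists used here were chosen with earlier results of these data known, so counts over them are descriptions. The thiamine synthesis gene nmt1 read 0.42 in OFF and -2.73 in ON (3.15), with its 4 tiles between -0.27 and 0.62 in OFF and between -3.03 and -2.46 in ON. The second synthesis gene, thi2, read 0.27 in OFF and -2.65 in ON (2.93). The thiamine transporter gene thi9 read 0.50 in OFF and -2.24 in ON (2.74). The acid phosphatase gene pho4 differed by 1.27, thi4 by 1.16, snz1 by 1.005 and the transcription factor gene thi5 by 0.81. The other transcription factor gene, thi1, read 0.32 in OFF and 0.57 in ON. These genes are transcribed in cells without thiamine, and OFF cells had thiamine; levels near 0 are those of the middle tile, so for nmt1, thi2 and thi9 the difference is between depletion in ON and the genome's middle in OFF. At nmt1 the ChIP channel alone differed by 3.47 and the input channel by 0.08.

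Genes listed for facultative heterochromatin, many but not all of them meiotic genes whose transcripts are removed in growing cells, were mostly lower in OFF. Of 13 measured, 12 were below 0 where 47.6% of all genes were, and 2 were lower by at least 2-fold, where 0.304% of all genes were at any level. Their median difference was -0.76, against -0.24 in wt, and -0.23 on the ChIP channel alone. This list too was chosen with earlier results of these data known, so its counts are a description and no test. The MADS-box gene mbx2 read -1.94 in OFF and -0.24 in ON (-1.70), the forkhead gene mei4 -0.75 in OFF and 0.22 in ON (-0.97), mcp7 -0.91 in OFF and 0.00 in ON (-0.91) and ssm4 -0.07 in OFF and 0.69 in ON (-0.76). Few of them were enriched on either array: spo5 read 1.43 in OFF and 1.37 in ON, rec11 0.97 in OFF and 1.03 in ON, and num1, also counted above, -0.01 in OFF and 1.09 in ON.

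In Tf2 elements and heterochromatin factors 0 genes counted as changed. Of all genes 0.911% counted as higher and 0.203% as lower, so 0 among 10 and 20 genes says little. Ribosomal protein, histone and euchromatic control genes all read below 1 on both arrays and so could not be counted. Without the level rule, 0 genes of the Tf2, factor, ribosomal, histone or control lists differed by at least 2-fold. Of all genes 1.46% were higher and 0.304% lower by that much. The 10 measured Tf2 retrotransposons read 2.36 in OFF and 2.24 in ON, with differences from -0.06 to 0.28 and a median of 0.11, which became -1.002 under the pericentromeric scaling and -0.003 on the uncentred ratios. All have copies elsewhere, so their tiles cannot be assigned to 1 element. The loci of 20 heterochromatin factors had a median difference of -0.02, from -0.42 at sir2 to 0.27 at clr4. The sign of that median turned under mode centring, at 0.17, and on the ChIP channel alone. Of 114 ribosomal protein genes 85 were above 0, where 52.4% of all genes were, with a median of 0.11 (0.50 in wt) and a range from -0.89 to 0.89. Of 11 histone genes 10 differences were above 0, with a median of 0.23 against -0.05 in wt, and all 11 read below 0 on both arrays. The 11 euchromatic control genes had a median of -1.37 in OFF and -2.16 in ON, with pgk1 at -1.79 in OFF and -2.61 in ON and his3 at 0.13 on both arrays. Their median difference was 0.46, above the upper quartile of all genes (0.16), against 0.22 in wt, and the largest were at pgk1, fba1 (0.79) and leu1 (0.74). Most control, histone and ribosomal protein genes read low in ON, unlike the median gene. Other arm tiles that low differed too, by a median of 0.62 below -2 and of 0.26 between -2 and -1 in ON. The values over all genes are thus not matched for level, and a positive difference was not particular to these lists.

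Enriched runs in the arms were mostly kept. Runs of 5 or more tiles whose running median over 3 tiles reached 1 were taken as domains, and outside the fixed regions 508 were found in OFF and 440 in ON. Of the ON domains 395, or 89.8%, shared a tile with an OFF domain. Among 382 matched one to one, 276 had both edges within 1 tile of each other. Their levels moved little: the kept domains differed by a median of 0.11 (quartiles 0.03 and 0.20), 3 by at least 2-fold upwards and 0 downwards. Those kept with the most used tiles after the ura4 domain were 13.8 kb over sib1 (1.82 in OFF, 1.72 in ON), 14.1 kb over pgp1, gyp2, gid1, ubc11, chk1 and meu27 beside pericentromere III (2.16 in OFF, 1.61 in ON), 13.5 kb over mat3-Mi, mat3-Mc, emc3, mtd1 and srp40 at the mating-type locus (4.02 in OFF, 2.12 in ON) and 11.7 kb over tra2 and fal1 (1.59 in OFF, 1.51 in ON). Only the one at the mating-type locus differed by more than 1, at 1.67.

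Of the 111 domains found in OFF without a partner in ON, 103 had already read 0.5 or more in ON, and 7 were at least 2-fold higher. The 45 lost had a median difference of -0.17, and 7 were at least 2-fold lower. Of the gained ones 7 spanned at least 10 tiles. The largest change among these was over SPAC57A7.05, at 1.74 in OFF and -0.89 in ON. Others lay over prm1 and lys1 (1.30 in OFF, 0.79 in ON), over SPAC869.04 and SPAC869.03c inward of subtelomere I right (1.10 in OFF, 0.36 in ON) and over abz1 and thi5 (1.31 in OFF, 0.75 in ON). Those over dnf1, abc3, and vps52 with cdc10 read from 1.05 to 1.18 in OFF and from 0.99 to 1.07 in ON, and so passed the threshold by little. The 3 long losses lay over bop1 with SPAP32A8.02 (0.29 in OFF, 1.90 in ON), over rpl2402, sry1, ark1 and atp23 (0.49 in OFF, 1.42 in ON) and over pmd1 (-0.06 in OFF, 1.13 in ON).

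The 2 channels of each ratio took unequal parts in these differences. At subtelomere I right the ChIP channel was 0.92 higher in OFF and the input channel 0.68 lower. On the subtelomeric clones the input channel moved more, by -1.29, than the ChIP channel, by 0.90. In the ectopic core the ChIP channel was higher by 0.68 and the input channel lower by 0.07. These medians cover unlike parts of the core. Its 30 tiles at 3 or more in ON, which differed by 1.28, were 0.84 higher in the ChIP channel and 0.41 lower in the input channel. At the mitochondrial genome the input channel was 0.47 lower and the ChIP channel 0.19 higher. The losses showed the mirror image: at sry1 the ChIP channel was lower by 1.67 and the input channel higher by 0.68, and at coq6 these were -1.495 and 0.80. Direction of each of these was the same in the ChIP channel alone, but the sizes were smaller than those of the ratio. The part that input signal plays in the ratios was not tested.

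**Figure D5:**
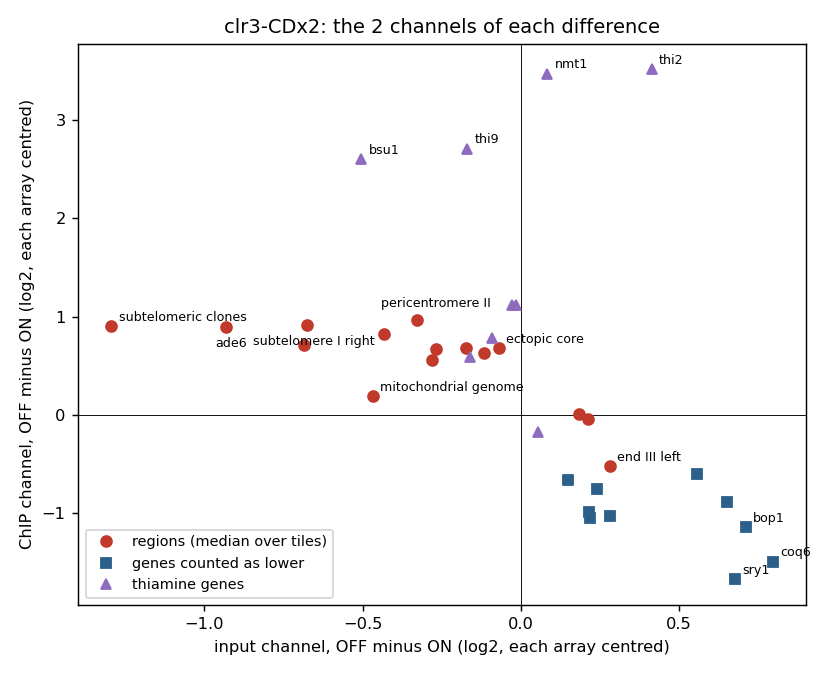
ChIP channel (y axis) against input channel (x axis) difference between clr3-CDx2 OFF and ON, each array centred on its median, in log2 units, for regions, genes counted as lower and thiamine genes. Subtelomeres, clones, pericentromeres, the mating-type contig and ade6 lie upper left, with a higher ChIP and a lower input channel in OFF, the 10 lower genes lie lower right, and nmt1 and thi2 lie at the top with input differences of 0.08 and 0.41.

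Both genotypes shared part of these differences, and the 4 arrays that give them are separate. Over 39280 arm tiles outside the ectopic domain and ade6 the clr3-CDx2 and wt differences correlated at r = 0.494, as a description over tiles that share probes and 1 slide. Genes counted as higher in wt were 7, or 0.142%, and as lower 26, or 0.526%. As higher in both counted 6 genes, 13.3% of the clr3-CDx2 list and 85.7% of the wt list. Lower in both were 5 genes, sry1, coq6, bop1, msn5 and rsc58, 50% of the clr3-CDx2 list and 19.2% of the wt list. In opposite directions went 6 genes, higher in clr3-CDx2 and lower in wt: ade6 and the 5 genes of the ectopic core counted above. At pmp20, for example, OFF read 4.64 and ON 3.18 in clr3-CDx2, where wt read -1.43 in OFF and 3.42 in ON.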

How the data were processed

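The authors' scanner files, per the file headers, come from Agilent Feature Extraction 12.0.3.1 and hold spot intensity, background and processed signals with linear dye normalisation; red (Cy5) is ChIP and green (Cy3) input, per the labels' protocols. The deposited series matrix holds the log2 ratio of processed signals, uncentred, with medians of 0.185 in clr3-CDx2 OFF, 0.296 in clr3-CDx2 ON, 0.173 in wt OFF and 0.234 in wt ON; scale and direction were found by setting it against the scanner values, which it equalled on 100% of tiles (tolerance 1e-06). No spot was saturated, and at most 3 spots per channel and array were not well above background.

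Log2 ratios were centred on the array median without loess or quantile steps, and spots marked non-uniform on either array compared were left out. Regions are given by the median of their tile differences, genes by the difference of their medians. Tiles were placed on ASM294v3 (RefSeq) by the shift of each arm at which input signal correlated most with GC content; positions printed for tiles are the array's, whose build is not given in the sources used here. A tile was repeated if so named or if at least 50% of its 31-mers recur (1339 tiles). Pericentromeres were the longest intervals free of protein-coding genes on each chromosome, subtelomeres the outer 50 kb of chromosomes I and II, ends of III the outer 25 kb. The members, regions and gene lists were chosen with earlier results of these data known. Named genes are all those counted as lower, the 5 largest counted as higher per region, list members, and genes in the longest domains kept, gained or lost. Alternatives were mode centring, the deposited ratios, marked spots kept, repeated tiles left out, normexp (limma 3.58.1, offset 50, on spot medians since means were not in the files used), multiplying each array's log2 values to an equal pericentromeric median and the ChIP channel alone. Python 3.11.15, numpy 2.4.6, pandas 2.3.3 and scipy 1.17.1 were used. The number of arrays limits the precision. Sequences were not printed because the array's probes are not in the files used here.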

Additional observations from a re-analysis of the deposited data

Results flagged for a closer look

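Results that went in opposite directions in the 2 genotypes were singled out. Each genotype has 1 array per state, so the difference between the genotypes was not tested. OFF minus ON was 0.89 in clr3-CDx2 and -3.29 in wt over the ectopic core, and 1.78 in clr3-CDx2 and -3.01 in wt over the tiles of ade6. By gene medians, ade6 differed by 1.80 in clr3-CDx2 and by -3.04 in wt. SPCC330.07c differed by 1.496 in clr3-CDx2 and by -4.44 in wt, and pmp20 by 1.46 in clr3-CDx2 and by -4.85 in wt. SPCC330.03c differed by 1.18 in clr3-CDx2 and by -3.74 in wt, mug135 by 1.16 in clr3-CDx2 and by -3.26 in wt, and ura4 by 1.04 in clr3-CDx2 and by -3.81 in wt.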

How the results depend on the processing

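No paired analysis was possible because each group has 1 array and replicate numbers only name it, and leaving out a replicate was not possible for the same reason. The medians of the thiamine and facultative lists and subtelomere I right kept their sign under each signal alternative run. Centring on the mode adds 0.19 to every difference and the deposited ratios take 0.11 from it. Mode centring gave 6 lower genes and 60 lower tiles, 252 ON domains with 225 gained and 12 lost, 1.07 at the ectopic core and 1.004 at subtelomere II left. The deposited ratios gave 727 ON domains, 51 gained and 139 lost, and 0.99 for the core genes. Leaving out repeated tiles gave 21 higher genes, 333 higher tiles and 0.017 at the subtelomeric clones, and no value for Tf2, the silenced genes or the left end of chromosome III. Normexp gave 179 lower tiles, 687 ON domains and 87 lost, 0.82 at the pericentromeres (0.66, 0.96 and 0.98 on I, II and III), 0.96 at the mating-type contig, 1.07 and 1.01 at subtelomeres II left and right, -1.27 at the left end of III and 0.71 for the core genes.

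Multiplying log2 values to an equal pericentromeric median gave 4 higher and 29 lower genes, 144 higher and 446 lower tiles, 698 ON domains, 9 gained and 347 lost. Differences under it were 0.39 at ade6, 0.98 and 0.55 at pericentromeres I and III, 0.30 at the mating-type contig, 0.23 and 0.012 at subtelomeres I left and right, 2.16 at the mitochondrial genome and 1.57 for the euchromatic controls. It reversed the silenced genes (-0.13), Tf2 (-1.002), the core genes (-0.64), SPAC750.07c (-0.081), SPCC330.03c (-0.72), SPCC330.07c (-0.48), Tf2-1 (-1.08), Tf2-12 (-1.19), Tf2-3 (-1.004), Tf2-8 (-1.06), mae2 (-0.42), mug135 (-0.56), pdc102 (-0.17), pmp20 (-0.34), tlh1 (-0.69) and ura4 (-0.71). The ChIP channel alone gave 7 higher and 3 lower genes, 273 higher and 30 lower tiles, 0.90 at ade6, 0.79 at the pericentromeres (0.67, 0.96 and 0.82 on I, II and III), 0.56 at the mating-type contig, 0.71 and 0.92 at subtelomeres I left and right, 0.90 at the clones, 0.69 for the silenced genes and 0.63 for the core genes. Domains cut at 1.5 numbered 166 in OFF and 111 in ON, with 72 gained and 13 lost, and those of 10 tiles 195 in OFF and 176 in ON, with 46 gained and 28 lost. The cause of the other changes was not tested.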
